A study of Mus musculus with 6 samples.

Results

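The 9 Toll-like receptors Tlr1 to Tlr9 were followed in stretched mouse macrophages with and without knockdown of Piezo1. They are all genes of that numbered series, found by matching Ensembl identifiers to symbols, and make up 9 of the 55401 genes in the matrix. Each symbol matched a single identifier, and all 9 passed the filter on low counts. Of these, 5 work at the cell surface: Tlr1 (ENSMUSG00000044827), Tlr2 (ENSMUSG00000027995), Tlr4 (ENSMUSG00000039005), Tlr5 (ENSMUSG00000079164) and Tlr6 (ENSMUSG00000051498). The other 4 work in endosomes: Tlr3 (ENSMUSG00000031639), Tlr7 (ENSMUSG00000044583), Tlr8 (ENSMUSG00000040522) and Tlr9 (ENSMUSG00000045322).

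Toll-like receptors are membrane proteins that bind conserved molecules of microbes and so let macrophages sense infection. The surface receptors bind lipoproteins, lipopolysaccharide and flagellin. The endosomal receptors bind nucleic acids, and reach the endosome with the chaperone UNC93B1. Nearly all signal through the adaptor MYD88 to NF-kB and to kinases that switch on cytokine genes, while TLR3 and, in part, TLR4 use the adaptor TRIF, the product of Ticam1.

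The cells were bone marrow-derived macrophages (BMDMs), primary cells that are matured into macrophages in culture from the marrow of mice, here of strain C57BL/6. In 3 libraries (siPiezo1) the cells had been transfected with an siRNA against Piezo1, a mechanically gated cation channel, and in 3 libraries (siNC) with a negative-control siRNA. The cells of both groups had then been stretched for 4 h, so every comparison here is of siPiezo1 with siNC in stretched cells. Cells without stretch were not analysed here. The study was concerned with Piezo1 and the proliferation of macrophages in bone remodelling. The labels do not say whether replicates were separate cultures or animals. The p-values therefore measure the spread between these libraries alone, which may be technical.

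Piezo1 itself stood at 111, 109 and 113 CPM (estimated counts per 1000000 of the scaled library total) in siPiezo1 libraries 1, 2 and 3, against 180, 285 and 189 CPM in siNC libraries 1, 2 and 3, so the knockdown was partial. Its log2 fold change was -0.97 ± 0.18 (SE), with an adjusted p of 0.744 by edgeR's quasi-likelihood test, 0.000982 by DESeq2 and 0.00245 by edgeR without siNC 2, and Ctu2 on the opposite strand covers 24.6% of its exon bases. Libraries held 67058765 to 75052745 estimated counts in siPiezo1 and 61086684 to 73573829 in siNC. The 9 macrophage markers summed to 33950 to 36620 CPM in siPiezo1 and 26960 to 34800 CPM in siNC, and none was at 0. Most of this was Lyz2 (25600 to 26820 CPM in siPiezo1 and 20620 to 24960 CPM in siNC). Pax5 of the B cell markers, Siglech of plasmacytoid dendritic cells, and Cd3e, Cd3d, Cd8a and Ncr1 of T and NK cells were listed at 0 in every library. Other markers of these lists were not at 0. Over the 6 libraries the plasmacytoid list summed to 354 to 472 CPM, mostly Bst2 (304 to 426 CPM). The B cell list summed to 1.82 to 3.54 CPM, and the T and NK cell list reached 1.73 CPM in siNC 2. The library siNC 2 stood apart. Across genes, r of log2 CPM was 0.965 to 0.975 for the pairs of libraries that hold siNC 2, and 0.984 to 0.989 for all pairs without it. Its 9 neutrophil markers summed to 3177 CPM, against 594 to 617 CPM in siPiezo1 and 628 and 674 CPM in siNC 1 and 3. Results for the receptors are therefore given with and without siNC 2.

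Promoters are shown for the members on which the results turn: Tlr8, which passed the test once siNC 2 was left out, Tlr9 and Tlr1, whose siPiezo1 libraries likewise lay under siNC 1 and 3 and over siNC 2, Tlr6, whose groups did not overlap, and Tlr2, the most abundant member. The sequences are from RefSeq on build GRCm38.p6, hold 250 bases before and 50 after an annotated start, and were available for 7 of the 9 members; Tlr4 and Tlr7 had no entry. For Tlr1 and Tlr6, which have more than 1 start, the first listed is shown. Each is written 5′ to 3′ on the strand of the gene. Capitals mark matches on either strand to 3 motifs: NF-kB (GGG, then any 5 bases, then CC), the core of the macrophage factor PU.1 (GAGGAA) and an interferon response motif (GAAA, then any 2 bases, then GAAA).
Tlr8 promoter, chrX:167264280-167264579, minus strand: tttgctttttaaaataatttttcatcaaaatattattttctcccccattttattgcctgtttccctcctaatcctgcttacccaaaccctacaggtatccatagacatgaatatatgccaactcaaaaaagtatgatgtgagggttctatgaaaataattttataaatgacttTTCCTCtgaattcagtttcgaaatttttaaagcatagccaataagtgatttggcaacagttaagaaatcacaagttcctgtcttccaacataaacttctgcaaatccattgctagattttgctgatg
Tlr9 promoter, chr9:106222348-106222647, plus strand: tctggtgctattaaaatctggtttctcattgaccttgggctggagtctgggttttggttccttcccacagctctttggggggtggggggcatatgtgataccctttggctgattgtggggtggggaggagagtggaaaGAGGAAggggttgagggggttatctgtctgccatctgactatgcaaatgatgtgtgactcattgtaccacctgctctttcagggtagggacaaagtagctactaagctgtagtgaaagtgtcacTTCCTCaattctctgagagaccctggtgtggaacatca
Tlr1 promoter, chr5:64933509-64933808, minus strand: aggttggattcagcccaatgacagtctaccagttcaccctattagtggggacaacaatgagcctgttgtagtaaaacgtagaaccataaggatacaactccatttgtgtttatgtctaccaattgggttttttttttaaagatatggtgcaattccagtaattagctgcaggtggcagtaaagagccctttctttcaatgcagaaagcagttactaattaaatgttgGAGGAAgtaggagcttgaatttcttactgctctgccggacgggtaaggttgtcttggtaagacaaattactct
Tlr6 promoter, chr5:64959117-64959416, minus strand: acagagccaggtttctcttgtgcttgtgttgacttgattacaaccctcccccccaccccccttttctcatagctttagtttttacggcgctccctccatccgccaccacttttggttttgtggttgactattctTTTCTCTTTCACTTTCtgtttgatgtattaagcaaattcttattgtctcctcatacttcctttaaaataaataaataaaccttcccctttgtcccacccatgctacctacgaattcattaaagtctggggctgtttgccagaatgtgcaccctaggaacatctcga
Tlr2 promoter, chr3:83841559-83841858, minus strand: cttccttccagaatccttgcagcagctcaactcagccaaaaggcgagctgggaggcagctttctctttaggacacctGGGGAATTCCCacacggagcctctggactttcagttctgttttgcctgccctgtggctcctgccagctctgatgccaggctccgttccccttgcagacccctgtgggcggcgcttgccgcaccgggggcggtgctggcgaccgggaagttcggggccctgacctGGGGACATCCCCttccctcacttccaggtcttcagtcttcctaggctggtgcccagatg

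The windows of Tlr8, Tlr9 and Tlr1 held 1, 2 and 1 matches to the PU.1 core, and none to the NF-kB or interferon letters. That of Tlr6 held 2 overlapping matches to the interferon motif, and that of Tlr2 held 5 to the NF-kB letters, in 2 overlapping clusters. At the second listed start Tlr1 held no match to the 3 motifs, and Tlr6 held 1 to the NF-kB letters and none to the others. Tlr3, whose siPiezo1 libraries also lay under siNC 1 and 3, is not shown. Its window held 3 matches to the NF-kB letters and none to the PU.1 core or the interferon motif. Among 32851 promoters of the same length, 28.3% held the PU.1 core, 50.8% the NF-kB letters and 3.44% the interferon motif. These matches describe the letters of the windows only.

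Another sequence bears on how Tlr1 and Tlr6 were counted. Their transcripts aligned at 94.9% identity over 1076 bases, and their reading frames shared a run of 229 bases letter for letter, longer than the 150-base reads. It spans bases 1468 to 1696 of the Tlr1 reading frame and 1507 to 1735 of the Tlr6 reading frame, counted from the start codon.
Shared run of Tlr1 and Tlr6: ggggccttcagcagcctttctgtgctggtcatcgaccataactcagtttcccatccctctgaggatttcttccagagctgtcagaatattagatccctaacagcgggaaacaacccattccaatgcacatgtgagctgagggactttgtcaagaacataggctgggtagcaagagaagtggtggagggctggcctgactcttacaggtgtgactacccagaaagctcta
How reads from this run were divided is not stated by the authors in the sources used here, so the split between Tlr1 and Tlr6 is uncertain. Of the other members, only Tlr3 met an overlapping gene or near-identical copy in the search: the antisense gene Gm45542 covers 7.32% of its exon bases and held at most 0.149 CPM.

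The receptors differed widely in level. Levels between genes are given as CPM per kilobase of exon, with the mean ± SD of the 3 libraries of a group. Tlr2, which binds bacterial lipoproteins together with TLR1 or TLR6, was highest, at 157 ± 9.43 in siPiezo1 and 163 ± 15.1 in siNC (SD, n = 3). Tlr7, a receptor for single-stranded RNA, followed at 71.1 ± 28.1 in siPiezo1 and 51.2 ± 35.4 in siNC, and its highest library (91.6) stood under the lowest of Tlr2 (146). Tlr8, a receptor for RNA in humans, stood at 26.3 ± 1.95 in siPiezo1 and 31.8 ± 14.2 in siNC, and its range over the 6 libraries (15.5 to 41.0) overlapped that of Tlr7 but not that of Tlr1.

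Below these the order was less certain. Tlr4, the receptor for lipopolysaccharide, had a median of 14.2 CPM per kilobase over the 6 libraries, but ranged from 2.78 to 26.3 and so overlapped every member but Tlr2 and Tlr5. Tlr1 (6.56 to 13.6) and Tlr6 (5.66 to 7.78) overlapped each other, as did Tlr6 and Tlr9, the receptor for unmethylated CpG DNA (2.06 to 6.52), and Tlr9 and Tlr3, the receptor for double-stranded RNA (2.87 to 5.48). Tlr5, the flagellin receptor, was lowest at 0.116 to 0.315 CPM per kilobase, or 11 to 26 fragments in a library. No other member came as low as Tlr5 in any library, and none as high as Tlr2.

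**Figure D1:**
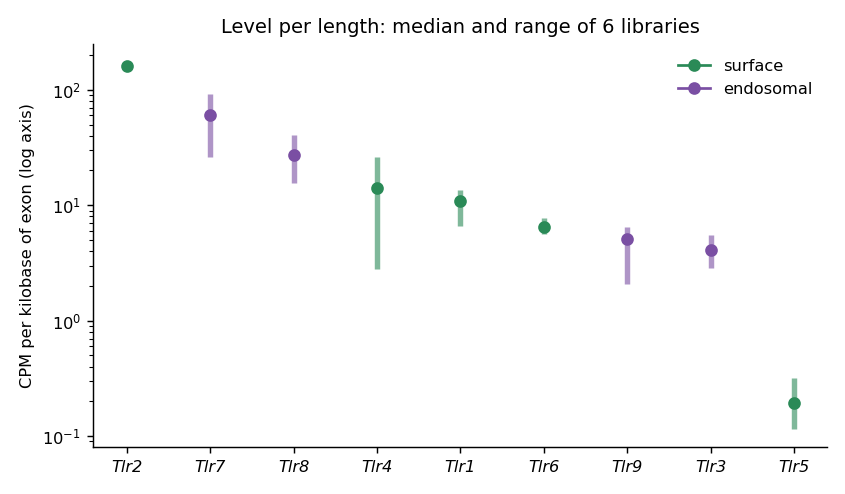
Level of each receptor as CPM per kilobase of exon (log axis), with the median (point) and the range (bar) of the 6 libraries, in order of the median. Tlr2 lies above and Tlr5 (0.116 to 0.315) below the ranges of all other members, while Tlr4 spans 2.78 to 26.3.

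Of the 5 surface receptors, none differed between siPiezo1 and siNC at an adjusted p under 0.05 with all 6 libraries, when 15959 genes were tested with edgeR's quasi-likelihood test (Benjamini-Hochberg adjustment). The same test called 0.00627% of all genes tested. At an unadjusted p under 0.05 it had 1 of the 5, Tlr6, higher in siPiezo1, where 2.52% of all genes were and 4.93% passed in either direction. DESeq2 and limma-voom also called 0 of the 5, where they called 0.551% and 0.00627% of all genes. The median log2 fold change was -0.06 over the surface receptors, with 2 above 0 and 3 below, and -0.01 over all genes tested. The surface median was 0.08 without siNC 1 and 0.005 without siNC 3.

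Tlr2 was the most even member, with 1.19 times as much in its highest as in its lowest library. It stood at 504, 449 and 462 CPM in siPiezo1, against 513, 439 and 522 CPM in siNC. The groups overlapped, and the log2 fold change was -0.06 ± 0.10 (SE), with a 95% interval of -0.30 to 0.18. Its partner Tlr1 stood at 28.7, 38.05 and 34.7 CPM in siPiezo1, against 45.4, 21.9 and 42.0 CPM in siNC. Here siNC 1 and 3 lay above every siPiezo1 library and siNC 2 below, and the log2 fold change was -0.11 ± 0.27 (SE).

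Tlr6, the other partner of TLR2, stood at 29.0, 28.5 and 25.1 CPM in siPiezo1, against 23.7, 21.1 and 21.4 CPM in siNC. Every siPiezo1 library lay above every siNC library, and siNC 2 lay beside siNC 1 and 3. It was the only one of the 9 members whose groups did not overlap, where 11.9% of all genes tested did not (6.24% with siPiezo1 higher, 5.65% with siPiezo1 lower). The log2 fold change was 0.32 ± 0.11 (SE), which missed the threshold (edgeR's quasi-likelihood test, Benjamini-Hochberg adjusted p = 0.978 and unadjusted p = 0.0219). On CPM, the exact permutation test (two-sided) gave p = 0.1, the smallest value that 3 against 3 libraries allow. The sum of Tlr1 and Tlr6, which does not depend on how reads were split between them, was 57.7, 66.6 and 59.8 CPM in siPiezo1, against 69.1, 43.0 and 63.4 CPM in siNC, and its groups overlapped.

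Tlr4 was the least even member, with 9.49 times as much in its highest as in its lowest library. It stood at 16.4, 24.5 and 133 CPM in siPiezo1, against 141, 15.4 and 146 CPM in siNC. Libraries of both groups thus fell at a high level (siPiezo1 3, siNC 1 and siNC 3) and at a low level (siPiezo1 1, siPiezo1 2 and siNC 2). The log2 fold change of -0.80 ± 1.03 (SE) had a 95% interval of -3.26 to 1.66, which spans both lower and higher levels in siPiezo1.

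Within siPiezo1 the highest Tlr4 library held 8.15 times the lowest, whereas siNC 1 and 3 differed by 1.04 times. Among 4595 genes with at least 50 CPM in a library, 9 (0.196%), Tlr4 included, were as uneven within siPiezo1, and the median ratio was 1.11. No annotated gene overlapped Tlr4, and no near-identical copy was found. The values are counts as the authors assigned them to the gene, and whether reads were assigned to Tlr4 alike in every library was not tested. Its partners did not share the split. Ly96, whose product MD-2 binds lipopolysaccharide together with TLR4, stood at 16.3, 16.4 and 15.8 CPM in siPiezo1, against 18.1, 13.7 and 19.5 CPM in siNC. Cd14, which hands lipopolysaccharide to that complex, stood at 927, 746 and 926 CPM in siPiezo1, against 722, 1263 and 737 CPM in siNC.

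**Figure D2:**
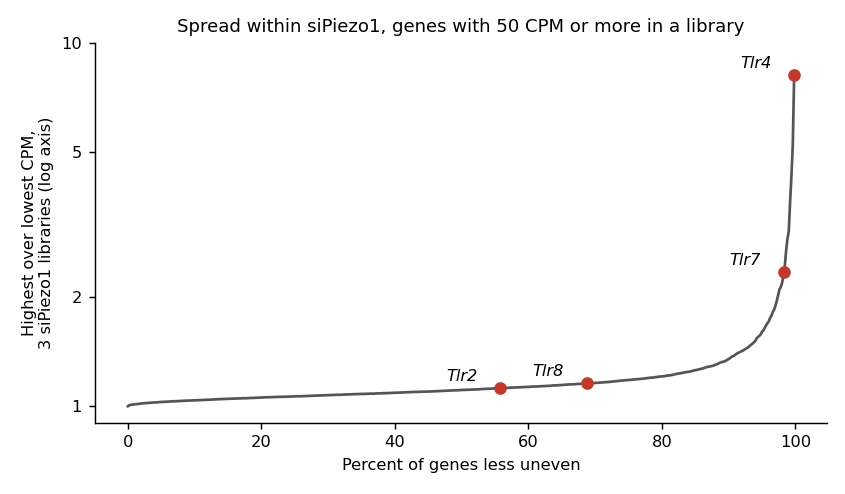
Highest over lowest CPM among the 3 siPiezo1 libraries (log axis) for 4595 genes with at least 50 CPM in a library, sorted from even to uneven (x axis, percent of genes less uneven; the most uneven end of the curve is not drawn). Tlr2 (1.12) and Tlr8 (1.16) lie in the flat part, and Tlr7 (2.34) and Tlr4 (8.15) at the steep end.

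Tlr5 held the fewest counts of the members. It stood at 0.853, 1.01 and 1.51 CPM in siPiezo1, against 0.823, 0.556 and 1.45 CPM in siNC, and the groups overlapped. The log2 fold change was 0.25 ± 0.48 (SE), with a 95% interval of -0.89 to 1.39.

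**Figure D3:**
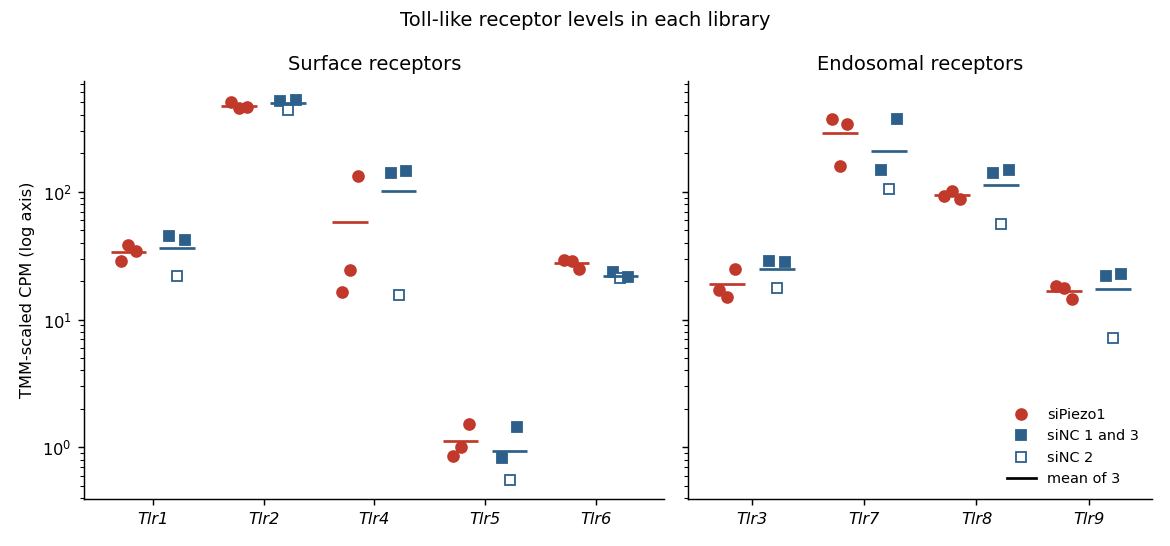
CPM of each receptor in every library (log axis), surface receptors left and endosomal receptors right. Circles are siPiezo1 libraries, filled squares siNC 1 and 3, open squares siNC 2, and lines the means of 3. The siNC 2 square is the lowest siNC value of every member; for Tlr8 it is 55.5 CPM, against 139 and 147 CPM in siNC 1 and 3.

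Of the 4 endosomal receptors, none passed the threshold with all 6 libraries in edgeR's quasi-likelihood test, 0 had an unadjusted p under 0.05, and DESeq2 and limma-voom called 0. Their median log2 fold change was -0.16, with 1 above 0 and 3 below. Its direction was not stable, as it was 0.02 with limma-voom, 0.03 without siNC 1 and 0.07 without siNC 3. Tlr8 stood at 92.6, 102 and 88.1 CPM in siPiezo1, against 139, 55.5 and 147 CPM in siNC. All siPiezo1 libraries lay within a narrow band, under siNC 1 and 3 and over siNC 2, and the log2 fold change was -0.27 ± 0.34 (SE).

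In Tlr9, too, siPiezo1 lay under siNC 1 and 3 and over siNC 2. It stood at 18.2, 17.5 and 14.6 CPM in siPiezo1, against 22.1, 7.16 and 22.7 CPM in siNC, with a log2 fold change of -0.04 ± 0.41 (SE). For Tlr3 the values were 17.1, 15.0 and 24.7 CPM in siPiezo1, against 28.6, 17.6 and 28.2 CPM in siNC, and -0.39 ± 0.26 (SE). Again siNC 1 and 3 were the highest libraries, but siNC 2 lay among the siPiezo1 libraries.

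Tlr7, the neighbour of Tlr8 on the X chromosome, did not follow it. It stood at 373, 159 and 338 CPM in siPiezo1, against 147, 106 and 374 CPM in siNC. Here siPiezo1 1, siPiezo1 3 and siNC 3 were high and the other libraries low, a division unlike that of Tlr4 and unlike the groups. The log2 fold change was 0.48 ± 0.52 (SE), with a 95% interval of -0.77 to 1.72. The highest siPiezo1 library held 2.34 times the lowest, and siNC 3 held 2.54 times siNC 1. Of the 4595 genes at this level, 1.76% were as uneven within siPiezo1 and 0.74% as uneven between siNC 1 and 3. As for Tlr4, whether reads were assigned to Tlr7 alike in every library was not tested.

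Without siNC 2, 1 of the 9 receptors passed the threshold: Tlr8 was lower in siPiezo1. The mean of siPiezo1 was then 65.8% of that of siNC 1 and 3, with a log2 fold change of -0.61 ± 0.08 (SE). By edgeR's quasi-likelihood test the adjusted p (Benjamini-Hochberg, over 16442 genes) was 0.0133. The same test without siNC 2 called 0.45% of all genes lower. Over the 14 alternatives the adjusted p of Tlr8 ran from 0.0133 to 1, and it passed under 1 of the 14. Tlr8 was 1 of 180 genes called in either direction without siNC 2, or 1.09% of all genes, 0.645% being higher in siPiezo1. Of the 9 macrophage markers, Adgre1 and Fcgr1 were also called lower without siNC 2, at -0.31 ± 0.05 and -0.46 ± 0.07 (SE). C1qa was at -1.45 ± 0.22 and Mertk at -0.59 ± 0.13 (SE), and neither passed after adjustment. In edgeR's quasi-likelihood test 4 of the 9 were lower at an unadjusted p under 0.05. The median of the 9 was -0.11, with 2 above 0 and 7 below. The 3 monocyte markers summed to 210 to 236 CPM in siPiezo1, against 132 to 247 CPM in siNC, and 1 of them, Ly6c2, was called higher without siNC 2. The part of these levels in the Tlr8 result was not tested.

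The other members mostly lay on the same side. In 7 of 9 the log2 fold change without siNC 2 was below 0, with a median of -0.14 over the surface and -0.50 over the endosomal receptors, beside 0.0038 over all genes. Tlr1, Tlr2, Tlr3, Tlr4, Tlr8 and Tlr9 had every siPiezo1 library below siNC 1 and 3, where 16.2% of all genes did, and Tlr6 had every siPiezo1 library above them, where 16.7% did. At an unadjusted p under 0.05, 4 of 9 were lower (Tlr1, Tlr3, Tlr8 and Tlr9), where 6.71% of all genes were, and 1, Tlr6, was higher, where 7.54% were. The library left out was the lowest of all 6 for 8 of the 9 receptors, but for 27.1% of all genes tested. Leaving it out raised the siNC mean of those receptors and so lowered their fold changes. The shares over all genes are therefore not a like measure, and these counts do not show a trend of the family. The log2 fold changes were -0.37 ± 0.12 for Tlr1, -0.59 ± 0.21 for Tlr3, -0.42 ± 0.13 for Tlr9 and 0.29 ± 0.11 for Tlr6 (SE), and none of these 4 passed after adjustment. Tlr2 was at -0.14 ± 0.06, Tlr4 at -1.31 ± 1.17, Tlr5 at -0.02 ± 0.47 and Tlr7 at 0.15 ± 0.66 (SE). In bulk RNA, fewer cells that express a receptor and less of its RNA per cell cannot be told apart.

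**Figure D4:**
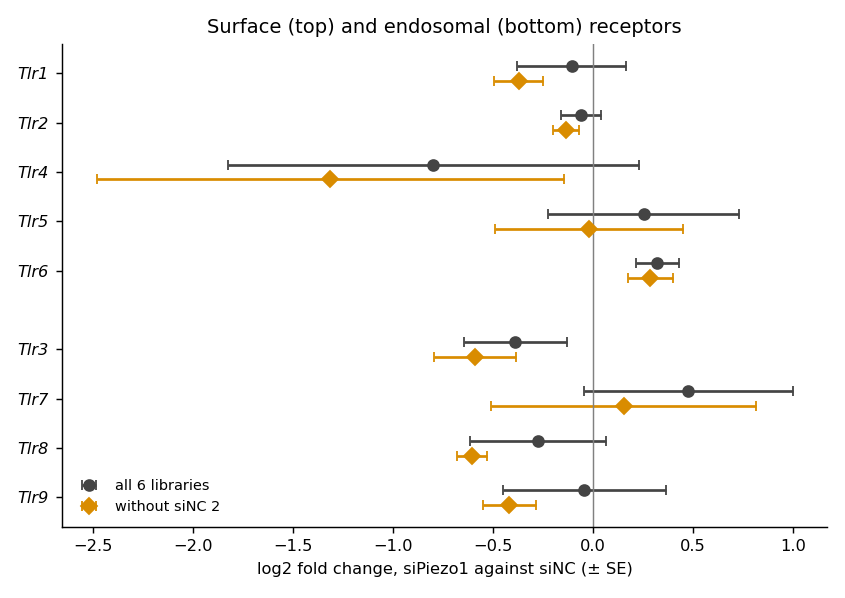
Log2 fold change of each receptor, siPiezo1 against siNC, with its SE, from all 6 libraries (grey circles) and without siNC 2 (orange diamonds). Without siNC 2 Tlr8 narrows to -0.61 ± 0.08, while Tlr4 stays wide at -1.31 ± 1.17 and Tlr6 stays above 0 in both.

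In siNC 2 the receptors were low together. It held the lowest value of all 6 libraries for 8 of the 9 receptors, where it did for 27.1% of all genes tested; the exception was Tlr3, which was lowest in siPiezo1 2. As a share of the mean of siNC 1 and 3, siNC 2 held 10.7% for Tlr4, 32.0% for Tlr9, 38.8% for Tlr8, 40.6% for Tlr7, 48.9% for Tlr5, 50.2% for Tlr1, 62.1% for Tlr3, 84.9% for Tlr2 and 93.6% for Tlr6. Of the 9 macrophage markers 8 were lowest in siNC 2, with a median log2 ratio of -0.50 to siNC 1 and 3, and all 9 neutrophil markers were highest there. Genes that these receptors induce were high in siNC 2. Of 15 tested inducible targets, 14 were higher in siNC 2 than in any other library, where 28.8% of all genes were, and Ccl5 was lowest there. Among them Tnf, an early macrophage cytokine, was at 262 CPM in siNC 2, with 83.6 CPM in siNC 1 and 91.6 CPM in siNC 3. The cytokine gene Il1b was at 292 CPM in siNC 2, with 16.8 CPM in siNC 1 and 18.2 CPM in siNC 3. These are values of 1 library beside 2, with no test, and the part of the marker levels in those of the receptors was not tested.

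**Figure D5:**
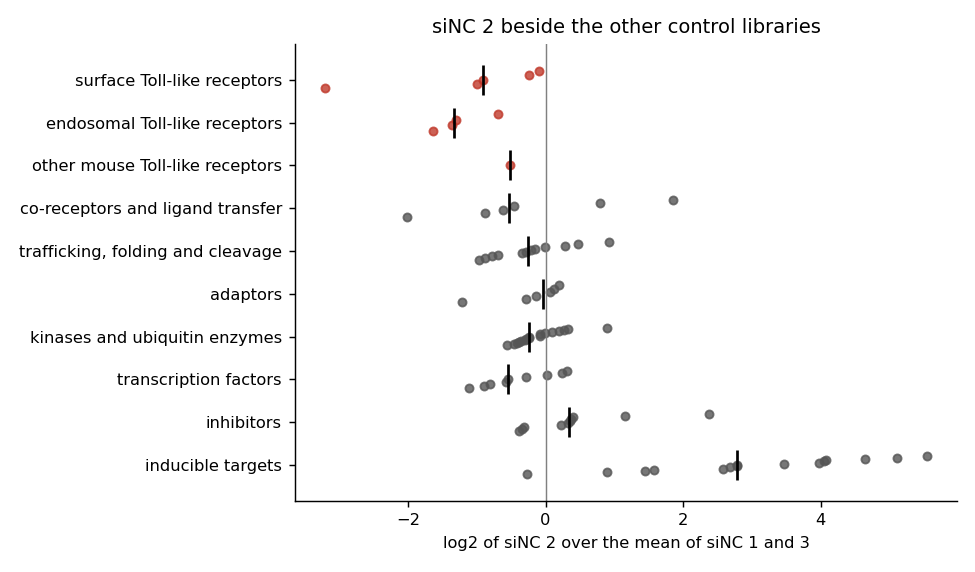
Log2 of siNC 2 over the mean of siNC 1 and 3 for each tested gene (points; CPM + 0.1) of the receptor and pathway lists, with list medians as vertical lines. The surface and endosomal receptors (red) have medians of -0.92 and -1.33, and the inducible targets a median of 2.79.

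The partners and signalling genes of the receptors were read from 8 lists with 80 genes, of which 76 were tested. None passed the threshold with all 6 libraries in edgeR's quasi-likelihood test. At an unadjusted p under 0.05 there were 1 higher and 2 lower where 2.52% and 2.41% of all genes were, and DESeq2 and limma-voom called 0. DESeq2 gave no p for some inducible targets, Il6, Ccl2, Il1b and Cxcl3 among them, so it could not call those. Without siNC 2 the test called 2 of 76 higher and 2 of 76 lower, where it called 0.645% of all genes higher and 0.45% lower.

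Unc93b1, whose product carries the endosomal receptors out of the endoplasmic reticulum, was 1 of the genes lower without siNC 2. It stood at 391.9, 400.2 and 386 CPM in siPiezo1, against 507, 299 and 514 CPM in siNC. As for Tlr8, the siPiezo1 libraries lay in a narrow band under siNC 1 and 3 and over siNC 2, with -0.38 ± 0.05 without siNC 2 (SE; edgeR's quasi-likelihood test, Benjamini-Hochberg adjusted p = 0.0186) and -0.16 ± 0.20 with it. Cd36, a scavenger receptor that passes lipids to the TLR2 and TLR6 pair, was the other, at 526, 520.0 and 474 CPM in siPiezo1, against 663, 358 and 653 CPM in siNC. Its log2 fold change was -0.38 ± 0.06 without siNC 2 (SE; edgeR's quasi-likelihood test, Benjamini-Hochberg adjusted p = 0.0351) and -0.14 ± 0.23 with it. The 2 higher genes were Ctsl, a protease that cleaves endosomal receptors, at 0.31 ± 0.05, and the chemokine gene Cxcl3, at 1.15 ± 0.15 (SE). With all 6 libraries Ctsl was at 0.14 ± 0.15 and Cxcl3 at -2.04 ± 1.25 (SE), and siNC 2 held 282 CPM of Cxcl3. Their counts are uncertain, since the antisense gene Gm47123 covers 26.8% of the exon bases of Ctsl, and Cxcl2 aligns with Cxcl3 at 90.7% identity over 550 bases.

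The 12 genes of trafficking, folding and cleavage had log2 fold changes of -0.22 to 0.30 with all 6 libraries. Smallest in p were Hsp90b1, which encodes the folding chaperone GP96, at -0.22 ± 0.11, Cnpy4 at 0.21 ± 0.13, the lysosomal transporter gene Slc15a4 at 0.30 ± 0.19 and Ap3b1 at 0.09 ± 0.08 (SE). Without siNC 2 Hsp90b1 was at -0.12 ± 0.05, Slc15a4 at 0.10 ± 0.08 and Ap3b1 at 0.04 ± 0.05 (SE). Of the 6 co-receptor and ligand transfer genes, Lbp, for the lipopolysaccharide-binding protein, had an unadjusted p under 0.05 and stood at 3.70, 3.70 and 4.27 CPM in siPiezo1, against 6.42, 21.2 and 5.22 CPM in siNC. Its log2 fold change of -1.49 ± 0.54 (SE) was -0.58 ± 0.21 (SE) without siNC 2. Ly86, whose product MD-1 pairs with CD180, stood at 13.5, 11.03 and 7.70 CPM in siPiezo1, against 26.1, 6.29 and 25.6 CPM in siNC, and its log2 fold change was -0.84 ± 0.52 with all 6 libraries and -1.27 ± 0.22 without siNC 2 (SE). Cd180 itself, a homologue of TLR4 that lacks the signalling domain, was at 0.27 ± 0.17, and at 0.09 ± 0.07 without siNC 2 (SE), and overlapped between the groups.

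Myd88, the adaptor of nearly all members, stood at 123, 118 and 116 CPM in siPiezo1, against 120.2, 111 and 124 CPM in siNC, and Ticam1, for TRIF, at 30.9, 30.2 and 30.7 CPM in siPiezo1, against 31.0, 34.3 and 28.8 CPM in siNC. In neither did the groups separate. The adaptors smallest in p were Pik3ap1 at -0.18 ± 0.10, Ticam2 at 0.12 ± 0.08, Sarm1, at most 0.404 CPM in any library, at 1.67 ± 1.70, and Tirap at -0.12 ± 0.15 (SE). Without siNC 2 Pik3ap1 was at -0.27 ± 0.06 and Sarm1 at 1.07 ± 1.64 (SE). Among 17 kinases and ubiquitin enzymes none had an unadjusted p under 0.05, and the median was 0.03. Without siNC 2, 3 of the 17 were lower at that p, where 6.71% of all genes were, and the median was -0.05. Those smallest in p with all 6 libraries were Map3k7, for the kinase TAK1, at 0.27 ± 0.13, Traf3 at 0.60 ± 0.31, Tbk1 at 0.19 ± 0.12 and Ube2n at -0.11 ± 0.09 (SE). Without siNC 2 Map3k7 was at 0.25 ± 0.13, Traf3 at 0.59 ± 0.47, Tbk1 at 0.07 ± 0.07 and Ube2n at -0.05 ± 0.08 (SE). Traf3 stood at 40.0, 88.8 and 43.0 CPM in siPiezo1, against 34.7, 37.8 and 41.0 CPM in siNC. Its groups overlapped, and siPiezo1 2 alone stood far above the other libraries. Map3k7 and Ube2n have copies of at least 95.1% identity, and their counts are uncertain.

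Among the 9 transcription factors Irf8, a factor of the macrophage lineage, had an unadjusted p under 0.05. It stood at 90.3, 158 and 154 CPM in siPiezo1, against 101, 65.4 and 89.5 CPM in siNC, with a log2 fold change of 0.65 ± 0.25 (SE). Without siNC 2 it was at 0.49 ± 0.30 (SE) and no longer had an unadjusted p under 0.05. The NF-kB genes Rel, Nfkb1 and Nfkb2 were at -0.23 ± 0.11, -0.18 ± 0.10 and -0.13 ± 0.16 (SE), and without siNC 2 at -0.12 ± 0.08, -0.10 ± 0.06 and -0.30 ± 0.07 (SE). Of the 10 tested inhibitors, Sigirr, which restrains the receptors of this family, had an unadjusted p under 0.05 but at most 1.86 CPM in any library, and did not without siNC 2. The inhibitors Atf3, Nfkbia and Tnfaip3 were at 0.20 ± 0.12, -0.22 ± 0.13 and -0.29 ± 0.20 (SE), and without siNC 2 at 0.09 ± 0.07, -0.08 ± 0.07 and -0.41 ± 0.22 (SE). The median of the 10 was -0.14 with all 6 libraries and 0.05 without siNC 2. Exons of Hsp90b1, Myd88, Ticam2 and Nfkb2 overlap those of another gene over 10.3% (1810014B01Rik), 11.3% (Acaa1a), 14.5% (Tmed7) and 11.6% (AC114539.1) of their bases, so their counts are less certain.

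The inducible targets turned with siNC 2. Their median log2 fold change was -1.24 with all 6 libraries, with 14 of 15 below 0, and 0.37 without siNC 2, with 12 of 15 above 0. Those smallest in p with all 6 libraries were Il6, Ccl2, Cxcl10 and Il1b, at -3.97 ± 1.69, -3.04 ± 1.40, -0.57 ± 0.28 and -2.003 ± 1.10 (SE). Without siNC 2 they stood at 0.29 ± 0.74, 0.57 ± 0.16, -0.21 ± 0.16 and 0.63 ± 0.12 (SE).

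Outside the 9 members, the family has 3 more receptors in the mouse, all endosomal. Tlr13, which binds bacterial ribosomal RNA, stood at 382, 382 and 346 CPM in siPiezo1, against 394, 286 and 428 CPM in siNC, with a log2 fold change of 0.00 ± 0.15 and, without siNC 2, of -0.16 ± 0.07 (SE). It was lowest in siNC 2, as were 8 of the 9 members. Tlr11 was listed at 0 in every library, which allows up to 0.153 to 0.190 CPM (3 fragments in a library, counting error only), and Tlr12 did not pass 0.106 CPM.

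For the 6 members whose highest library held at least 2 times the lowest, the 3 genes of most like pattern were sought among 10041 named genes with a mean of at least 5 CPM, by the root mean square difference of gene-centred log2 CPM (CPM + 0.1) over the 6 libraries. For Tlr8 they were Csad, Rgs10 and Pdxk, at 0.06 to 0.09, beside a standard deviation of 0.51 for Tlr8 itself. Csad, an enzyme of taurine synthesis, stood at 10.6, 11.5 and 9.19 CPM in siPiezo1, against 16.0, 5.73 and 16.5 CPM in siNC. For Tlr9 they were Cacnb1, Gm10134 and Tgtp2, at 0.06 to 0.08. Those of Tlr1 were Ago1, Adcy7 and Ptger4, at 0.07 to 0.08. Tlr7 was followed most closely by Cdk14, at 0.14, which stood at 69.9, 31.5 and 79.6 CPM in siPiezo1, against 31.3, 26.1 and 79.7 CPM in siNC, and then by Rab11b and Rnasek. For Tlr5 they were Rilpl1, Ly6a and Mbd4, at 0.16 to 0.17. Differences were largest for Tlr4, whose nearest were Ctdsp2, Cx3cr1 and Pygo2 at 0.64 to 0.79, beside a standard deviation of 1.62 for Tlr4. Ctdsp2 and Cx3cr1 were high and low in the same libraries as Tlr4, while Pygo2 was not low in siPiezo1 2. Ctdsp2 stood at 50.3, 52.6 and 121 CPM in siPiezo1, against 166, 37.5 and 174 CPM in siNC.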

How the data were processed

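RNA sequencing was analysed in 3 siPiezo1 and 3 siNC libraries, grouped by their titles. Per the labels' protocols, poly(A) RNA was made into dUTP-marked libraries and sequenced as paired reads of 150 bases. The submitters' processing notes name cutadapt 1.9, HISAT2 2.0.4, StringTie 1.3.4d, DESeq2, edgeR and build GRCm39 without roles, and neither the annotation release nor the use of strand in counting is given in the sources used here. The values as deposited are estimated counts per Ensembl gene, whole numbers not scaled between samples. From the spacing of low values, 1 fragment was worth 3.85 to 3.93 counts, by library. No rounding was needed. The tests had been planned for counts, and stayed the same for this unit.

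Symbols and exon lengths came from GENCODE M21 (GRCm38), which named 55141 identifiers. The promoter coordinates are on GRCm38.p6, which differs from the GRCm39 named by the submitters. No other gene coordinates are given. Counts were tested in R 4.3.3 with edgeR 4.0.16: filterByExpr, TMM factors (also used for CPM), the robust quasi-likelihood test with the group as the only term, and Benjamini-Hochberg adjustment over all tested genes at 0.05. SE is the fold change over the square root of F. The test was checked on simulated counts. Copies were sought by aligning transcripts (at least 90% identity over 200 bases).

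The members, lists and tests were chosen with earlier results of these data known. All members are named. Of each pathway list, genes past the threshold and the 4 of smallest p are named. Tnf, Cd14, Ly96, Myd88, Ticam1, Ccl5, Adgre1, Fcgr1, C1qa, Mertk, Lyz2, Ly6c2 and Bst2 were added after the values were seen. So were the library values of Csad, Cdk14, Ctdsp2 and Traf3. Alternatives were DESeq2 size factors, library totals, no filter, a minimum of 50 counts in 3 libraries, limma-voom (limma 3.58.1), DESeq2 1.42.0, counts divided by 4, the replicate number as a block and each library left out. Replicates of a group differed by more than counting noise, so none was counted as a repeat.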

Additional observations from a re-analysis of the deposited data

How the results depend on the processing

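With all 6 libraries 1 gene of all tested was called. Library totals alone gave 0, DESeq2 gave 88, and leaving out 1 library gave 0 to 180, with 180 without siNC 2 and 5 without siPiezo1 3. Among the surface receptors 0 were called under every alternative. Among the endosomal receptors 0 to 1 were called on leaving out 1 library, the 1 being Tlr8 without siNC 2, and 0 otherwise. Over the 14 alternatives Tlr2, Tlr3, Tlr4, Tlr6, Tlr7 and Tlr8 kept their direction (-0.14 to -0.01, -0.63 to -0.25, -2.31 to -0.36, 0.28 to 0.38, 0.15 to 1.20 and -0.61 to -0.05 on the log2 scale). Tlr9 turned to 0.18 with limma-voom. On leaving out 1 library Tlr1 ran from -0.37 to 0.08, Tlr5 from -0.022 to 0.70 and Tlr9 from -0.42 to 0.20. The medians ran from -0.14 to 0.08 over the surface and from -0.50 to 0.07 over the endosomal receptors. The cause was not tested. Same-numbered libraries deviated from their group means with correlations of 0.037, -0.079 and -0.16. The siNC mean holds siNC 2, which stood apart, so these values cannot show whether same-numbered libraries shared a culture. The replicate block gave 0 calls over all genes and 0.11 for Tlr9. Depth limited Tlr5, with 11 to 26 fragments a library.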
